A study of Mus musculus with 4 samples.

Results

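Open chromatin at cell cycle and replication genes was examined in subcutaneous white fat of mice. The set held 115 of the 11993 genes in the deposited gene table and was chosen by name alone. The naming pattern takes cyclins, cyclin-dependent kinases and their inhibitors, E2F factors, Cdc genes, Mcm, Orc and Gins genes, and subunits of the DNA polymerases alpha, delta and epsilon. The RefSeq gene table holds 135 protein-coding symbols of this pattern, of which 115 were measured. The remaining 20, among them Ccnd1, Ccnb2, Ccne2, Cdk6, Cdkn2a, Cdkn2d, E2f6 and Mcm4, were not analysed here. The pattern also takes genes that share only a name with the cell cycle, such as the GTPase gene Cdc42 and its effectors, and these are described last.

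The assay was ATAC-seq on nuclei of frozen tissue labelled WAT (white adipose tissue), where the Tn5 transposase inserts sequencing tags into accessible DNA. All libraries came from mice labelled WT (wild type), and the groups were 2 female libraries (female 1 and female 2) and 2 male libraries (male 1 and male 2). The labels used here name no strain, age or treatment and do not say whether each library is a separate animal, so p-values measure the spread between these libraries, which may be technical. The question of the design is how open chromatin differs between the sexes in this depot.

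A cell that divides passes from growth through DNA synthesis to mitosis, and cyclins drive each step by activating cyclin-dependent kinases, which the Cdkn proteins restrain. The D-type cyclins with Cdk4 free E2F factors from the retinoblastoma protein, and E2F factors then act at the promoters of genes for DNA synthesis. Origin recognition (Orc), Cdc6 and the Mcm helicase license replication origins, Cdc45 and the Gins complex switch the helicase on, and the polymerases copy the strands. In adult fat, mature adipocytes are known as cells that seldom divide, and division is mostly that of progenitor, immune and vascular cells.

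Most of these genes had an open region near the gene start, though 25 genes had a region downstream of the gene. The 115 genes were linked to 169 regions, none linked to a pair of them, with a median length of 230 bp. One region was linked to each of 73 genes, 2 regions to 32 genes, and 3 or 4 regions to 10. A region within 1000 bp of the start in the deposited table was present for 109 genes (94.8%), against 69.7% of all genes. The nearest summit, the point of greatest tag overlap in a peak, was upstream of the start for 91 genes and at or inside it for 24, with a median position 64 bp upstream (-64). It lay within 300 bp of the start for 102 genes (88.7%).

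The remaining 6 genes had no region within 1000 bp of that start. In 4 of them (Ccnd3, Cdkn1a, Cdkn2c and E2f2) the window of a further RefSeq start overlapped an open region. The regions of Ccnd3, for cyclin D3, lay at -2747 bp, that is upstream, and at 6181 and 88389 bp inside the gene. Those of Cdkn1a, for the inhibitor p21, lay 2710 to 4566 bp inside the gene. Cdkn2c, E2f2, Cdc42bpa and Cdc42bpg were the others, with nearest summits at -1508, 8262, -1057 and -8697 bp.

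Promoter sequence was read from RefSeq for build GRCm38.p6, in windows of 250 bases before to 50 bases after a start. Of the 115 genes, 97 matched the table, with 116 windows, and 91 of these windows overlapped an open region. Over all measured genes 7153 of 11549 windows did. E2F sites were searched as TTTGGCGC or TTTCGCGC, and the CHR element, which is known from promoters of genes active in mitosis, as TTTGAA. The CCAAT box was searched as CCAAT, the GC box as GGGCGG and the NRF1 core as CGCATGCG, each on both strands. A match is a description of letters, not a shown binding site. The letters of an E2F site and a CHR element cannot overlap, while E2F words can overlap on opposite strands and share an end base with a CCAAT or GC box.

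E2F sites were the motif in which the set stood furthest from other promoters in proportion. They were present in 11 of the 97 genes (11.3%), against 1.90% of all measured genes with a promoter in the table and 0.929% of all genes in it. The replication origin and helicase group held 6 of them (Mcm3, Mcm5, Mcm6, Mcm7, Mcm8 and Orc1, of 19 genes matched) and the polymerases 2 (Pola1 and Pole2, of 9). Cdk1, Cdc25a and E2f2 held the remainder. In 7 of the 11 genes (Cdc25a, Cdk1, Mcm3, Mcm5, Mcm6, Pola1 and Pole2) the site lay inside an open region of these libraries, a count added after the data were seen. The same share over all measured genes with an E2F site is not given here. Mcm3, Mcm6, Mcm7 and Mcm8 are named here for their sequence, and outside the rule by which genes were chosen for their heights.

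The other motifs differed less from the background. A CHR element was found in 22 genes (22.7%), against 13.9% of measured genes and 20.2% of all genes in the table. By role, 3 of 5 E2F factors, 4 of 19 origin and helicase genes, 2 of 9 mitotic Cdc genes and 0 of 3 cell cycle cyclins held one. A CCAAT box was found in 53 genes (54.6%), against 43.8% and 41.1%, and at least 2 boxes in 30 (30.9%), against 17.7% and 13.3%. A GC box was found in 81 (83.5%), against 68.4% and 38.2%. The NRF1 core was found in 3 (3.09%), against 4.38% and 2.07%. Base composition differed too, with a median GC content of 62.3% in windows of the set, 60.7% in those of measured genes and 52.7% in all.

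The stretches below show E2F sites or CHR elements that lie inside an open region and upstream of the RefSeq start. CHR elements were taken only on the strand of the gene and within 80 bases of the start. They run 5′ to 3′ on the strand of the gene, with the motif letters in capitals, and positions count back from -1 at the base before the start. Cdk1 (chr10:69352913-69353073, minus strand) carries an E2F site at -131 and CHR elements at -71 and -15. Mcm5 (chr8:75109326-75109397, plus strand) and Mcm6 (chr1:128359715-128359845, minus strand) each carry E2F words that overlap on opposite strands, and Mcm6 has one more site at -47. Cdc25a (chr9:109875482-109875549, plus strand) has 1 site at -67, and Pola1 (chrX:93632256-93632323, minus strand) has 1 at -138 on the opposite strand. Cdc20 (chr4:118437344-118437391, minus strand) and Ccnf (chr17:24251410-24251453, minus strand) show a CHR element at -18 and -14. E2f3, Gins3 and Mcm2 also carry a CHR element within the limits above, at -23, -28 and -70, and their stretches are not printed. CHR elements outside these limits are not listed, among them a further element of Ccnf at -130 in its open region.
Cdk1: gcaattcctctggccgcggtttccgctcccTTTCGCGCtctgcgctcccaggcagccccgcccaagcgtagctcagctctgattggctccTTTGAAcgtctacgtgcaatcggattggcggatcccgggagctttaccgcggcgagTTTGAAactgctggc
Mcm5: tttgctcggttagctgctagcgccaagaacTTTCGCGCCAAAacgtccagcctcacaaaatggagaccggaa
Mcm6: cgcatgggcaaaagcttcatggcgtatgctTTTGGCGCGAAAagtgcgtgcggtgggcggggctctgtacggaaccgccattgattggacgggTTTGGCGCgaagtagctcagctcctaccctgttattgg
Cdc25a: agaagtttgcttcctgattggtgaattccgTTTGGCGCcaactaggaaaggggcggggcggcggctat
Pola1: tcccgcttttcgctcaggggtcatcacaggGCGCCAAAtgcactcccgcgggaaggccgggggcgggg
Cdc20: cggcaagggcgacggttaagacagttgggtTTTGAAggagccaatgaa
Ccnf: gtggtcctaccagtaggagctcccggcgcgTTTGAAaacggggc

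**Figure D1:**
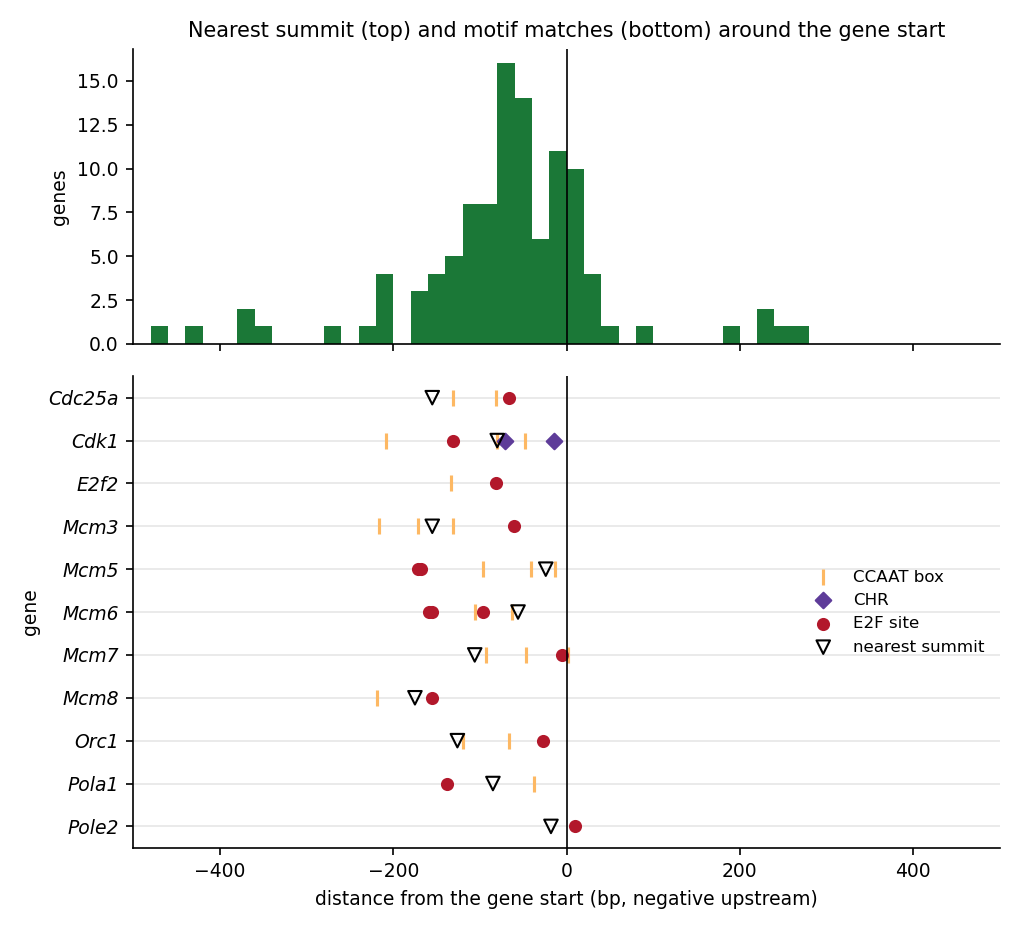
Top, number of genes (vertical axis) by distance of the nearest summit from the start in the deposited table (bp, bins of 20 bp), for the 107 genes with a summit within 500 bp. Bottom, matches of 3 motifs and the nearest summit in the 11 genes with an E2F site, on the same axis, so that a position can differ from that given from the RefSeq start; most summits and E2F sites lie upstream of the start, and the summit of E2f2, 8262 bp inside the gene, is off the axis.

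A height is the number of overlapping tags at a peak, scaled by the authors and, for a gene with several regions, averaged by them. In the order female 1, female 2, male 1, male 2, a tag was worth 1, 0.822, 0.707 and 0.734, which puts the median gene of the set with 1 region at 41, 39, 38 and 22 tags. The sources used here give no read totals. Peak intervals numbered 10238 and 8022 in the females and 5484 and 4049 in the males, and the libraries differed in height at genes of every kind. In bulk tissue, fewer cells of a type and less open chromatin per cell cannot be told apart.

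Across the set, heights were highest in female 1 and lowest in male 2. In the order female 1, female 2, male 1, male 2 the median heights were 40, 32.1, 26.5 and 16.2. Over all genes they were 38.0, 30.2, 24.0 and 14.7, so the set lay a little above the middle of each library, at median percentiles of 54.8, 56.0, 59.0 and 57.1. Female 1 was the highest library for 91 of the 115 genes (79.1%, against 79.7% of all genes), and male 2 the lowest for 101 (87.8%, against 83.9%).

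**Figure D2:**
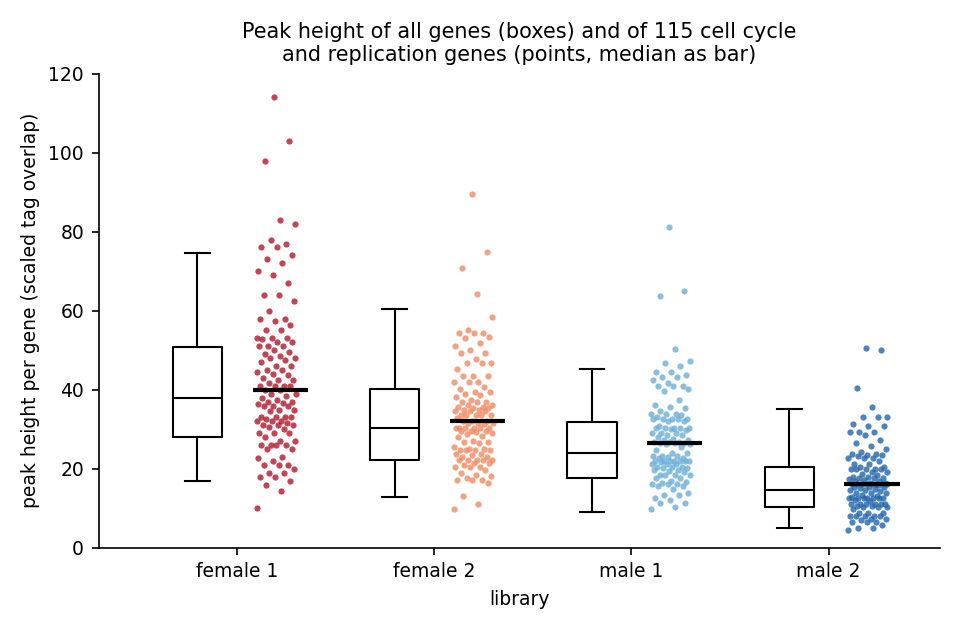
Peak height per gene (vertical axis, scaled tag overlap) in each library, for all 11993 genes (boxes with quartiles, median and whiskers from the 5th to the 95th percentile) and for the 115 genes (points, with the median as a bar). The medians of the 115 genes step down from 40 in female 1 to 16.2 in male 2 and lie slightly above those of all genes.

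No gene of the set passed the test between the sexes. With limma on log2(height + 9) and Benjamini-Hochberg adjustment over all 11993 genes, 0 of 115 genes were lower in males at an adjusted p under 0.05, where 0.592% of all genes were, and 0 were higher, where 0% of all genes were. At an unadjusted p under 0.05 limma gave 36 of the set lower (31.3%, against 31.4% of all genes) and 0 higher (against 0.00834%). The smallest limma adjusted p of the set was 0.0941, for Ccnk. Limma without a variance trend called 3 genes lower (Ccnk, Ccnyl1 and Cdkn2aip), where 3.47% of all genes were called. Fold differences on this scale understate the change of low genes.

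The set shifted with the table as a whole. The log2 difference, male minus female, was negative for 111 of the 115 genes (96.5%, against 96.7% of all genes), with a median of -0.60 in the set and -0.63 over all genes. Standard errors lay between 0.34 and 0.41. Both males were below both females for 84 genes (73.0%), where 76.4% of all genes had that order, and 0 genes had both males above both females, where 0.350% of all genes did. With each library centred on its own median, the 2 orders held for 25 genes (21.74%, against 21.68% of all genes) and 22 genes (19.13%, against 18.03%). After that centring limma called 0 genes of the set, where 0% of all genes were called. At an unadjusted p under 0.05 it then gave 4 lower and 5 higher in males, together 7.83% of the set, where 8.02% of all genes were called, and the smallest limma adjusted p of the set was 0.609. Log2 differences of named genes of the set are therefore followed by the relative difference, which is the log2 difference less the median of all genes.

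The test depended on 1 male library. Without male 1, limma called 63 genes of the set lower (54.8%), where 53.3% of all genes were called, and without female 1, female 2 or male 2 it called 0. Male 2 also stood apart in the order of genes, in the set and over all genes. The Spearman correlation over the 115 genes was 0.846 between the females and 0.820 and 0.818 between male 1 and each female. It was 0.529, 0.528 and 0.544 between male 2 and female 1, female 2 and male 1. Over all genes the values in the same order were 0.850, then 0.837 and 0.822, then 0.603, 0.584 and 0.643. These correlations are descriptions over genes that share the libraries and their depth.

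**Figure D3:**
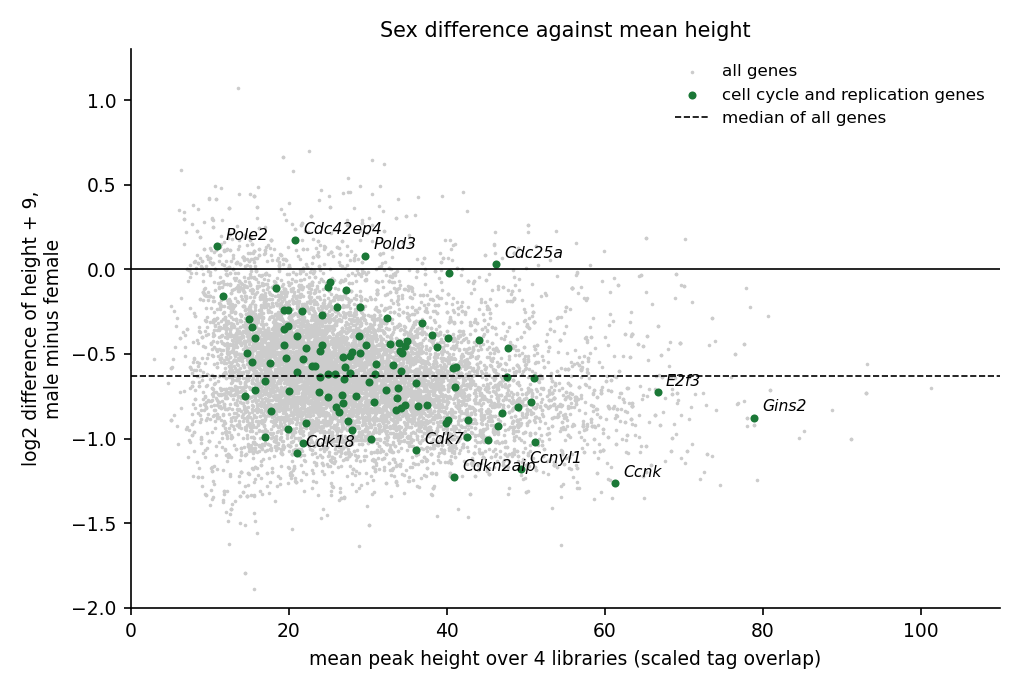
Log2 difference of height + 9, male minus female (vertical axis), against mean height over the 4 libraries (horizontal axis, scaled tag overlap), for all genes (grey) and the 115 genes (green). The green points spread around the dashed median of all genes at -0.63, from Ccnk at -1.27 to Cdc42ep4 at 0.17.

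At the low end of the comparison were Ccnk, Cdkn2aip, Ccnyl1, Cdk18, Cdk7 and Cdc42ep1. Ccnk encodes cyclin K, which activates the transcription kinases Cdk12 and Cdk13, and its region (mm10 chr12:108179274-108179744) lay between Ccnk and Setd3, which starts in the opposite direction. Its heights were 103 and 74.8 in females and 47.4 and 19.8 in males (log2 difference -1.27, SE 0.41, limma adjusted p = 0.0941), and the relative difference was -0.64. Cdkn2aip, which encodes a partner of the tumour suppressor ARF, had 74 and 46.9 in females against 30.4 and 12.5 in males (log2 -1.23, relative difference -0.60). Ccnyl1, a cyclin Y-like gene, had 82 and 58.4 against 43.1 and 14.0 (log2 -1.18, relative difference -0.55). Both males lay below both females in these 3 genes, which were chosen for a low difference, and in 76.4% of all genes. Male 2 was the lowest library in each, as in 83.9% of all genes.

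Cdk18, a PCTAIRE kinase, had 33 and 30.4 in females against 13.4 and 7.34 in males (log2 -1.09, relative difference -0.46). Cdk7, the kinase that activates other Cdks and phosphorylates RNA polymerase II, had 58 and 43.6 against 32.5 and 10.3 (log2 -1.07, relative difference -0.44). Cdc42ep1, for an effector of the GTPase Cdc42, had 37 and 26.9 against 16.5 and 6.61 (log2 -1.03, relative difference -0.40). Here too the males lay below the females, the order of 76.4% of all genes. The limma adjusted p-values of these 6 genes ran from 0.0941 to 0.110.

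At the other end, the largest positive relative differences came with high values in male 2. Cdc42ep4, another Cdc42 effector, had 21 and 16.4 in females against 16.3 and 29.4 in males (log2 0.17, relative difference 0.80), and only male 2 had a called peak there. Pole2, for the second subunit of polymerase epsilon, had 10 and 9.86 against 9.90 and 14.0 (log2 0.14, relative difference 0.77), again with a peak in male 2 alone. Pold3, for a subunit of polymerase delta, had 20 and 37.0 against 21.2 and 40.4 (log2 0.08, relative difference 0.71). The males spanned or overlapped the females in all 3.

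Cdc25a encodes the phosphatase that releases Cdk2 and Cdk1 from inhibition, and its promoter stretch is shown above. It had 55 and 37.0 in females and 42.4 and 50.7 in males (log2 0.03, relative difference 0.66). Cdc73, for a subunit of the PAF transcription complex, had 47 and 33.7 against 30.4 and 49.9 (log2 -0.02, relative difference 0.61). Cdc123, which helps to assemble the translation factor eIF2, had 31 and 21.4 against 21.9 and 26.4 (log2 -0.07, relative difference 0.55). Male 2 exceeded male 1 in all 6 genes of this end. Without male 2 the differences of Cdc42ep4, Pold3 and Cdc25a turned to -0.13, -0.27 and -0.08, and that of Pole2 to -0.0027. Male 2 was the highest library for 5 of the 115 genes (4.35%, against 2.68% of all genes).

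The cell cycle cyclins had 5 measured genes, with median heights of 39.0, 33.7, 32.0 and 14.7 in female 1, female 2, male 1 and male 2. Ccna2, the cyclin of DNA synthesis, had the greatest mean height per gene, with 70 and 54.3 in females and 44.5 and 16.9 in males (log2 -0.93, relative difference -0.30, SE 0.41, limma adjusted p = 0.135). Ccnb1, the mitotic cyclin, had 39 and 31.2 against 23.3 and 10.3 (log2 -0.82, relative difference -0.19). Ccnd2, a D-type cyclin, had 32 and 30.4 against 19.1 and 7.34 (log2 -0.91, relative difference -0.28), with a called peak in female 1 only. The males were below the females in these 3 genes and in Ccnd3, at 53 and 39.5 against 32.0 and 19.8, an order found in 76.4% of all genes. Ccne1, the cyclin of entry into DNA synthesis, differed from them in male 1, with 36 and 33.7 in females and 34.6 and 14.7 in males, so that male 1 lay among the females.

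All 3 measured cell cycle kinases had both males below both females, an order found in 76.4% of all genes. Cdk1, the mitotic kinase whose promoter is printed above, had 51 and 35.3 in females and 24.03 and 11.01 in males (log2 -1.0044, relative difference -0.38, SE 0.39, limma adjusted p = 0.113). Cdk2, the kinase of DNA synthesis, had 76 and 53.0 against 43.1 and 23.9 (log2 -0.81, relative difference -0.18), as the mean of a region at its start and a taller one downstream of the gene. Cdk4, the partner of the D-type cyclins, had 46 and 37.4 against 30.04 and 23.9 (log2 -0.50, relative difference 0.13). The start region of Cdk2 had a called peak in female 1 only, with a summit of 45. Cdk4 shared both its regions with Tspan31 and A730063M14Rik, and Cdk2 shared both of its own with Rab5b and Pmel. The heights of Cdk4 and Cdk2 therefore need not belong to these genes alone.

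Of the 8 genes for kinase inhibitors and their partners, 6 (75.0%) had both males below both females, against 76.4% of all genes. Cdkn1b, for p27, had 47.5 and 30.4 in females and 26.5 and 19.8 in males (log2 -0.56, relative difference 0.07). Cdkn1a had 36 and 31.5 against 30.9 and 17.4 (log2 -0.40, relative difference 0.23), from 3 short regions inside the gene. Cdkn3, for a phosphatase that acts on Cdks, had 50 and 54.3 against 40.3 and 19.8 (log2 -0.70, relative difference -0.07). In each of these, male 1 was nearer to the lower female than to male 2.

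Cdkn1c, the imprinted gene for p57, had 29 and 23.02 in females and 18.4 and 29.4 in males (log2 -0.11, relative difference 0.52), with male 2 the highest library although the only called peak was in female 1. Cdkn2b, for p15, had 21 and 24.7 against 16.3 and 15.4 (log2 -0.36, relative difference 0.27), with a peak in each library. Cdkn2c, for p18, had 41 and 27.1 against 27.6 and 16.2 (log2 -0.49, relative difference 0.14) from a region upstream, at -1508 bp, that was also the region of 9630013D21Rik. None of the 3 had a limma adjusted p below 0.299.

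The E2F factors had 7 measured genes, among them the gene second in mean height. E2f3, an activating factor, had 98 and 70.7 in females and 65.0 and 33.0 in males (log2 -0.73, relative difference -0.10). E2f1, another activator, had 64 and 53.4 against 50.2 and 22.8 (log2 -0.64, relative difference -0.01). E2f2 had 26 and 24.7 against 12.02 and 5.14 (log2 -0.99, relative difference -0.37), from a single region 8262 bp inside the gene, close to its further RefSeq start. E2f4, a factor that mostly represses, had 33 and 29.0 against 20.5 and 13.5 (log2 -0.63, relative difference -0.01). E2f5, its relative, had 48.5 and 35.3 against 27.9 and 35.6 (log2 -0.32, relative difference 0.31), with male 2 above female 2.

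**Figure D4:**
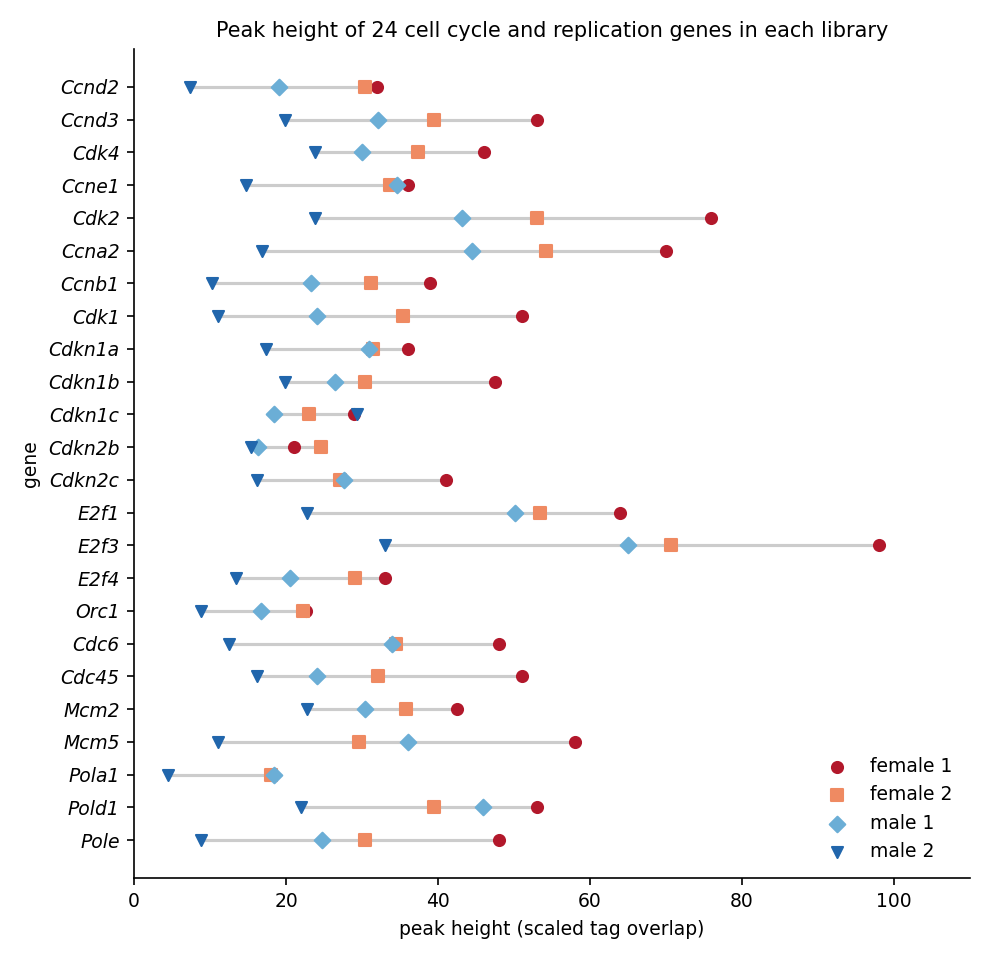
Peak height (horizontal axis, scaled tag overlap) of 24 genes of cell cycle control and replication in each of the 4 libraries, 1 symbol per library. Male 2 has the lowest symbol for all but Cdkn1c, at 29.4, and male 1 lies at or above the lower female for Ccne1, Cdkn2c, Mcm5, Pola1 and Pold1.

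Genes of replication origins and of the helicase were the largest group, with 22 members, all with a region within 1000 bp of their start. Both males were below both females in 14 of them (63.6%, against 76.4% of all genes). An unadjusted limma p under 0.05 was found for 4 (18.2%, against 31.4%), and 0 passed after adjustment. Gins2, for a subunit of the complex that switches on the helicase, had the tallest region of the set, with 114 and 89.6 in females and 81.3 and 30.8 in males (log2 -0.88, relative difference -0.25, SE 0.40, limma adjusted p = 0.143). That region was shared with the divergent gene Gm10614. Orc4, for a subunit of the origin recognition complex, had 77 and 64.1 against 43.8 and 19.8 (log2 -1.02, relative difference -0.39), from a region shared with the divergent gene Mbd5. Orc6 had 52 and 50.1 against 29.7 and 33.0 (log2 -0.57, relative difference 0.05), and there male 2 was not the lowest library.

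Mcm2, Mcm3, Mcm5, Mcm6 and Mcm7 encode parts of the helicase ring, Mcm8 and Mcm9 a helicase of recombination, Mcm10 a factor that joins the helicase at the origin, and Mcm3ap an export factor that binds Mcm3. Mcm2 had 42.5 and 35.8 in females and 30.4 and 22.8 in males (log2 -0.44, relative difference 0.19), as the mean of 2 regions that were also those of Tpra1. Its start region had a called peak in female 1 only, with a summit of 35. The other region, at -3492 bp, had summits of 50 and 46.0 in the females and no called peak in the males. Mcm5 had 58 and 29.6 against 36.1 and 11.01 (log2 -0.76, relative difference -0.13), with called peaks in female 1 and male 1 only. Mcm10 had 43 and 36.2 against 41.0 and 12.5 (log2 -0.56, relative difference 0.06). Male 1 lay between the females in both Mcm5 and Mcm10, while both males lay below both females in Mcm2, the order of 76.4% of all genes.

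Of the loading factors, Cdc6, which brings the helicase to the origin, had 48 and 34.5 in females and 33.9 and 12.5 in males (log2 -0.71, relative difference -0.09). Cdc45, a part of the active helicase, had 51 and 32.1 against 24.0 and 16.2 (log2 -0.78, relative difference -0.16). Orc1, the ATPase of origin recognition, had 22.7 and 22.2 against 16.7 and 8.81 (log2 -0.55, relative difference 0.07), averaged over a start region and regions 40386 and 40802 bp downstream of the start. Gins3 and Orc3 were low throughout, with 23 and 13.2 against 17.0 and 8.08, and 26 and 19.7 against 22.6 and 11.01. In these 2 genes male 1 lay between the females.

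The replicative polymerases had 10 members, and both males were below both females in 4 (40%, against 76.4% of all genes). Pola1, for the catalytic subunit that starts each strand, had the lowest values of the named polymerase genes apart from Pole2, with 18 and 18.1 in females and 18.4 and 4.41 in males (log2 -0.50, relative difference 0.13). Male 2 was the 1 library of the 4 to stand apart at Pola1. Pold1, the catalytic subunit of polymerase delta, had 53 and 39.5 against 45.9 and 22.0 (log2 -0.41, relative difference 0.22), and Pold2, its second subunit, had 53 and 43.6 against 63.6 and 16.2 (log2 -0.42, relative difference 0.21). Male 1 was the highest library for Pold2, and the region of Pold2 was also that of Aebp1. Pole, the catalytic subunit of polymerase epsilon, had 48 and 30.4 against 24.7 and 8.81 (log2 -0.95, relative difference -0.32), and Pole4 had 44 and 33.7 against 26.9 and 16.2 (log2 -0.66, relative difference -0.04). The region of Pole was shared with the divergent gene Pxmp2.

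Median heights of the 2 replication groups lay close to those of the set. For origin and helicase genes they were 41.4, 31.0, 29.3 and 15.4 in female 1, female 2, male 1 and male 2, with a median relative difference of 0.09. For the polymerases they were 32.2, 32.1, 25.1 and 16.2, with a median relative difference of 0.15. Over the 13 role groups the median relative difference ran from -0.19, in the 5 cell cycle cyclins, to 0.15, in the polymerases.

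**Figure D5:**
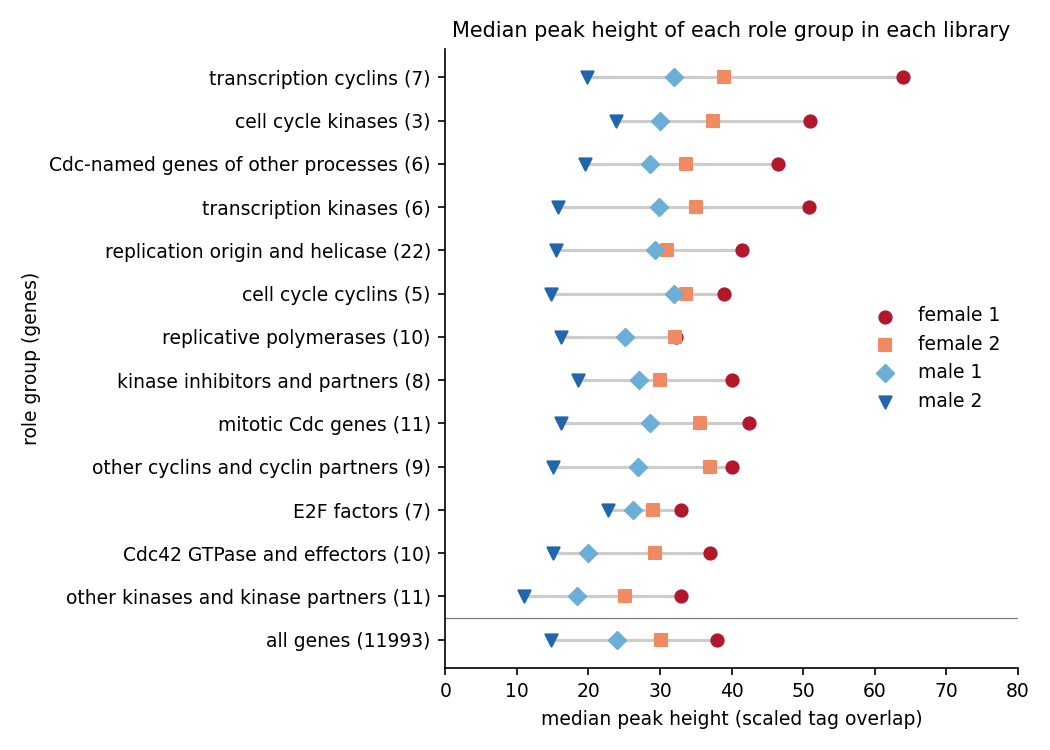
Median peak height (horizontal axis, scaled tag overlap) of each role group, with its number of genes, in each of the 4 libraries, with all genes in the bottom row. The 4 libraries keep the order female 1, female 2, male 1, male 2 in each group, and the transcription cyclins reach furthest, from 19.8 in male 2 to 64.0 in female 1.

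Cdc genes of mitosis and of protein breakdown had 11 members, 9 of them (81.8%, against 76.4% of all genes) with both males below both females. Cdc34, a ubiquitin-conjugating enzyme that acts with the SCF ligase, had 76 and 49.3 in females and 39.6 and 16.2 in males (log2 -1.01, relative difference -0.38, SE 0.41, limma adjusted p = 0.120). Cdc26, for a subunit of the anaphase-promoting complex, had 45 and 47.7 against 33.9 and 28.6 (log2 -0.46, relative difference 0.17), from a region shared with the divergent gene Prpf4. Cdc20, whose CHR element is printed above, activates that complex and was added to the named genes for its sequence. It had 40 and 34.9 against 26.5 and 12.5 (log2 -0.75, relative difference -0.12), as the mean of its start region and a region downstream that was also linked to Elovl1.

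The other cyclins and their partners had both males below both females in 9 of 9 genes (against 76.4% of all genes), with a median relative difference of -0.12 and 0 passing. Ccnf, for an F-box cyclin, had 67 and 41.9 in females and 35.7 and 16.2 in males (log2 -0.89, relative difference -0.26). Its start region (chr17:24251332-24251903), which holds the CHR element, had summits of 94 and 59.2 against 48.8 and 21.3, above the average that includes a distal region. Ccno, a cyclin of multiciliated cells, had 41 and 46.9 against 41.0 and 23.5 (log2 -0.39, relative difference 0.24), from a region shared with Mcidas. At Ccno male 1, at 40.998, lay just below female 1, at 41.0.

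Cyclins and kinases of transcription act on RNA polymerase II, and Cdk7 with its cyclin, from Ccnh, also activates cell cycle kinases. The 7 transcription cyclins had medians of 64.0, 39.0, 32.0 and 19.8 in female 1, female 2, male 1 and male 2. Ccnt1 and Ccnt2 encode cyclin T, the partner of Cdk9. Ccnt2 had 83 and 46.9 in females and 41.0 and 33.0 in males (log2 -0.64, relative difference -0.02), and Ccnt1 had 64 and 49.3 against 46.7 and 31.2 (log2 -0.46, relative difference 0.16). For Ccnt1 the start region was not the tall one, with summits of 41 and 23.8 against 29.0 and 32.3, while a region 33204 bp downstream of the start, linked also to Kansl2 and Snora2b, had 87 and 69.9 against 64.3 and 30.1. The sexes overlapped at the start region and not at the distal one.

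Among the transcription kinases, Cdk13 had 78 and 54.3 in females and 44.5 and 25.7 in males (log2 -0.78, relative difference -0.15), and Cdk19, a kinase of the Mediator complex, had 73 and 51.8 against 41.7 and 21.3 (log2 -0.85, relative difference -0.22). Both males lay below both females in either gene, the order of 76.4% of all genes. Of other kinases and partners, Cdk5, known from neurons, had 62.5 and 55.1 against 35.3 and 17.3 (log2 -0.99, relative difference -0.36). Cdk2ap2 had 56.5 and 34.9 against 26.2 and 16.9 (log2 -0.83, relative difference -0.20). Cdk5rap2, a centrosome protein gene, had 55 and 28.8 against 32.5 and 23.5 (log2 -0.42, relative difference 0.21), with male 1 between the females.

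Cdc42 and its effectors, which shape the actin cytoskeleton and polarity, had 10 members, 8 of them (80%, against 76.4% of all genes) with both males below both females. Cdc42 had 41 and 31.6 in females and 19.8 and 12.9 in males (log2 -0.85, relative difference -0.22, SE 0.38, limma adjusted p = 0.138). Cdc42se2 had 72 and 43.6 against 37.5 and 17.6 (log2 -0.89, relative difference -0.26), and Cdc42ep2 had 49.5 and 41.9 against 28.6 and 16.5 (log2 -0.82, relative difference -0.19). An unadjusted limma p under 0.05 was found for 6 of the 10 (60%, against 31.4% of all genes), and 0 passed after adjustment. The kinase genes Cdc42bpa and Cdc42bpg had no region within 1000 bp of the deposited start, with 25 and 18.5 against 11.3 and 8.08, and 37.5 and 40.7 against 27.2 and 17.99. Cdc42ep3 had 31 and 22.2 against 20.5 and 6.61.

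The remaining Cdc-named genes act in protein folding, splicing, transcription and translation. Cdc37, for a chaperone partner that delivers kinases to Hsp90, had 57.5 and 51.0 in females and 33.6 and 17.6 in males (log2 -0.91, relative difference -0.28, limma adjusted p = 0.136). Cdc40, a splicing factor gene, had 52 and 33.7 against 32.5 and 18.4 (log2 -0.60, relative difference 0.03), from a region shared with the divergent gene Wasf1. Both had the males below the females, the order of 76.4% of all genes.

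Called peaks were fewer in the male libraries. A peak was linked to 105 of the 115 genes in female 1 and to 99 in female 2, against 86 and 60 genes in males 1 and 2, which is 91.3%, 86.1%, 74.8% and 52.2%, against 89.7%, 76.7%, 61.2% and 49.1% of all genes. Every library had a peak at 49 genes (42.6%, where 35.9% of all genes had one), and both females and male 1 but not male 2 at 29 (25.2%, against 17.7%). A peak in both females and neither male was found at 10 genes (8.70%, where 11.7% of all genes showed it), and 0 genes had the reverse (where 0.475% did). With a height of at least 20 required for a peak, the counts for every library and for both females alone were 23 in place of 49 and 17 in place of 10. That height lies above the all-gene median of male 2 (14.7) and below those of female 1, female 2 and male 1 (38.0, 30.2 and 24.0). More genes therefore fall short of it in male 2, and the shares over all genes are not given here. With intervals that cover at least 0.5 of a region the first count was 25, and here too no share over all genes is given. Counts under these 2 settings therefore do not set the genes apart from others. The 10 genes were Cdc42, Cdc42bpa, Cdc42ep3, E2f2, Gins3, Mcm10, Mcm2, Mcm3ap, Orc3 and Pole4. Mcm10 shows how the call and the height can part, since male 1, with no called peak, had a height of 41.0 between those of the females.

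Neighbouring genes bear on what the heights measure. A divergent gene started within 1000 bp upstream of 21 of the 115 genes (18.3%, against 16.0% of all genes), and 41 genes (35.7%, against 39.5%) had exactly the regions of another gene. At least 1 region of 74 genes (64.3%, against 67.1%) was linked to another gene as well, and 25 genes had a region downstream of the gene. For these genes the height cannot be assigned to the named gene alone.

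Other genes of the same pathways that the naming pattern does not take also gave no call. Of 95 such genes measured, 0 passed limma's test (22 of G1/S control, 31 of replication and 42 of mitosis), with 27 at an unadjusted limma p under 0.05 (28.4%, against 31.4% of all genes) and a median relative difference of 0.02. Both males were below both females in 69 of them (72.6%, against 76.4%). In G1/S control, Rb1, for the retinoblastoma protein, had 29 and 30.004 in females and 19.8 and 15.4 in males, Mybl1 had 36 and 25.9 against 15.9 and 5.51, and Mybl2 had 38 and 39.5 against 25.4 and 7.34. In replication, Pcna, for the sliding clamp of the polymerases, had 48 and 33.7 against 25.8 and 12.9, and Dut and Donson had log2 differences of -1.01 and -1.04 (relative differences -0.38 and -0.42). Top2a, a topoisomerase of dividing cells, had 26 and 27.9 against 26.9 and 20.6. In mitosis, Ube2c and Stag1 had log2 differences of -1.12 and -1.11 (relative difference -0.49 for each). Mki67, a marker of dividing cells, was not analysed here. Top2a was the 1 gene of these in which male 1 lay between the females.

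Summed heights of markers of cell types in fat were also below both females in either male. The mean height of all genes had the same order, at 40.9 and 32.5 in females and 25.3 and 16.8 in males. Median relative differences of the 6 marker lists ran from -0.65, for mammary epithelium, to 0.07, for endothelium. Of 12 adipocyte markers 7 were measured, and their summed height was 289 and 243 in females and 146 and 107 in males. The defining markers Adipoq, Lep, Plin1, Fabp4 and Adrb3 were not analysed here, so the label of the tissue could be checked only on the others, among them Retn and Cfd with log2 differences of -1.18 and -1.05. Summed heights were 158 and 116 against 82.0 and 63.5 for 6 of 9 endothelial markers, and 101 and 80.6 against 41.0 and 43.3 for 4 of 9 progenitor and fibroblast markers. They were 76 and 68.2 against 37.5 and 21.1 for 2 of 9 macrophage markers, and 166 and 137 against 101 and 56.5 for 3 of 10 lymphocyte markers. For 4 of 14 markers of mammary epithelium, a tissue that lies in the female fat pad, they were 94 and 79.7 against 30.4 and 22.0. Of these markers 2, Spint2 and St14, passed the test (log2 -1.37 and -1.36, limma adjusted p = 0.0283 for each). Both had a called peak in female 1 only, 33497 and 10967 bp from the start. Their male heights were low, at 2.83 and 3.67 for Spint2 and 2.12 and 1.47 for St14. Relative differences of the 4 markers ran from -0.74 to 0.33. A region within 1000 bp of the start was present for 3 of 7 adipocyte, 1 of 6 endothelial and 1 of 4 mammary markers. For progenitor and fibroblast, macrophage and lymphocyte markers it was present for 2 of 4, 0 of 2 and 0 of 3. Summed heights of markers therefore need not belong to these genes alone. None of the 26 measured markers was at 0 in any library, and the part of cell composition in the heights of the set was not tested.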

How the data were processed

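ATAC-seq was run on 2 female and 2 male samples, with 10 PCR cycles per the labels. The submitters' processing notes list BWA, MACS2 2.1.0 and mm10 with no role or order. The version of BWA, filters and a Tn5 shift, not given in the sources used here, could change the heights. Per the file headers, each library has its own peak track and the authors merged them.

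The deposited values are a signal, the peak height in tag coverage, which the authors averaged per gene over its regions. Heights of genes with 1 region were whole multiples of a step per library, within 0.02 steps, so they were scaled before deposit, by a factor whose origin the files and labels used here do not state. Other deposited columns flag whether a library has a linked peak. The depth in reads is unknown. For tables of peak positions, coordinates are 1-based in mm10, and RefSeq promoters are of GRCm38.p6.

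Sexes were compared on log2(height + 9); the pseudocount is the 5th percentile of nonzero heights, rounded up to 9. The filter asked for nonzero heights in 2 libraries and removed no gene, leaving 11993. R 4.3.3 with limma 3.58.1 was used, its variance trend on and no replicate block, after the script was tested on simulated data. Benjamini-Hochberg adjustment ran over all genes with a threshold of 0.05. Python 3.11.15, pandas 2.3.3, numpy 2.4.6 and matplotlib 3.10.9 were used.

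The genes and lists (13 role groups, 3 lists of other pathway genes and 6 marker lists) were chosen with earlier results of these data known. Genes were named by a rule: any past the threshold; the 3 of greatest mean height per role; the 6 with the largest relative difference in each direction; those with a peak in both libraries of 1 sex alone; and a fixed set of textbook genes. This gave 67 genes. Of other lists, those past the threshold, the 2 smallest p per list and Mki67, Pcna, Top2a and Rb1 were named.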

Additional observations from a re-analysis of the deposited data

How the results depend on the processing

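The count of genes lower in males was 0 with both other pseudocounts (1 and 36), with the 25% of genes of lowest mean left out, without a filter, with centring, with quantile normalization and with 1 row per set of regions, and the count of higher genes was 0 under each alternative. Limma without trend called 3 of the set and 2 of the other pathway genes. With the replicate number as a block it called 61 of the set, where 57.7% of all genes were called, and 51 of the other pathway genes. The numbers pair no samples by the labels, and there are 2 pairs. Deviations of same-numbered libraries correlated at 0.0166 over all genes and 0.0685 in the set. Such a correlation over genes cannot show a shift common to all genes of a pair. Replicate 1 had the higher all-gene median in both sexes, at 38.0 against 30.2 in females and 24.0 against 14.7 in males. Whether same-numbered libraries share more than a number was not tested. With 1 library left out, the counts ran from 0 to 63 in the set and from 0 to 48 in the other pathway genes, the higher values without male 1. A lone library was then assumed to vary like the other group.

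The median relative difference of 0.03 was 0.04 with a pseudocount of 1, 0.01 with 36, 0.04 with quantile normalization, and -0.0022 to 0.04 with 1 library left out. Peaks in every library were at 23 genes where heights of at least 20 were required and at 25 where intervals had to cover 0.5 of a region. Peaks in both females alone were at 17 under the first of these, a height above the all-gene median of male 2 (14.7). No share over all genes is given for these counts, so they do not set the genes apart from others. Centring left 25 genes with both males below both females, and 7 genes had an E2F site inside an open region, an alternative chosen after the data were seen.

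Centring turned the sign of 25 of the 67 named genes, and quantile normalization that of 26, none past the threshold. Both settings remove the shift of all genes. Centred log2 differences were Ccne1 0.17, Ccno 0.23, Ccnt1 0.15, Cdc123 0.54, Cdc26 0.16, Cdc40 0.02, Cdc73 0.60, Cdk4 0.12, Cdk5rap2 0.20, Cdkn1a 0.22, Cdkn1b 0.06, Cdkn1c 0.51, Cdkn2b 0.26, Cdkn2c 0.13, E2f5 0.30, Gins3 0.28, Mcm10 0.05, Mcm2 0.18, Mcm3ap 0.01, Orc1 0.06, Orc3 0.28, Orc6 0.04, Pola1 0.12, Pold1 0.21 and Pold2 0.20. Quantile-normalized ones were Ccne1 0.18, Ccno 0.26, Ccnt1 0.20, Cdc123 0.52, Cdc26 0.17, Cdc40 0.04, Cdc42bpg 0.01, Cdc73 0.51, Cdk4 0.14, Cdk5rap2 0.23, Cdkn1a 0.23, Cdkn1b 0.06, Cdkn1c 0.48, Cdkn2b 0.23, Cdkn2c 0.13, E2f1 0.06, E2f5 0.27, Gins3 0.22, Mcm10 0.09, Mcm2 0.19, Orc1 0.03, Orc3 0.26, Orc6 0.03, Pola1 0.04, Pold1 0.27 and Pold2 0.32. With 1 library left out at a time, the genes that turned ranged as follows: Cdc123 -0.27 to 0.12, Cdc25a -0.21 to 0.27, Cdc42ep4 -0.13 to 0.47, Cdc73 -0.31 to 0.27, Cdkn1c -0.35 to 0.14, Mcm10 -1.17 to 0.04, Pola1 -1.01 to 0.02, Pold1 -0.82 to 0.0036, Pold2 -1.18 to 0.35, Pold3 -0.27 to 0.44 and Pole2 -0.0027 to 0.28.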
